A study of Homo sapiens with 4 samples.

Results

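DNA replication and S phase genes are 43 genes whose products license origins, unwind and copy DNA, supply nucleotides and carry cells from G1 into S phase. They were chosen by name for these roles, by a rule that uses no measured value, but with earlier results of these data known. All 43 of them were found among the 20323 genes of the deposited table, and all 43 passed the filter on low counts. RNA came from NK-92, an established line of human natural killer cells that depends on interleukin 2, given here at 100 IU/ml in medium with fetal bovine serum. NK scramble cells carried a lentiviral scrambled hairpin (shscramble, 2 libraries) and NK shADAR1 cells a lentiviral hairpin against ADAR1, the RNA editing enzyme encoded by ADAR (shADAR1, 2 libraries). Both groups were spun with virus and polybrene and then returned to growth medium. The comparison asks what knockdown of ADAR1 did to the RNA of NK-92 cells. Replicates are called independent and biological in the design text, and the study's text names a single hairpin, shADAR1-2, for this experiment. Below, the control pair is NK scramble replicates 1 and 2 and the knockdown pair NK shADAR1 replicates 1 and 2, with values always in that order. The labels number the libraries 1 and 2, which is read here as the replicate number although the study's hairpins carry the same numbers. A single cell line limits the groups as a model.

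In G1, the origin recognition complex with CDC6 and CDT1 loads rings of MCM2 to MCM7 onto DNA, and in S phase CDC45 and the GINS complex turn these rings into active helicases. PCNA, a clamp loaded by the RFC complex, holds the polymerases on DNA, and ribonucleotide reductase, TYMS and TK1 feed them with nucleotides. Most of these genes are classic targets of E2F transcription factors, which cyclin E and CDK2 release from RB proteins at the end of G1. Proliferating lymphocytes in interleukin 2 express this program.

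Total estimated counts ran from 37881704 to 39960491 per library, and the lowest count of any of the 43 genes was 569. ADAR had 655 and 682 CPM (counts scaled to library size with TMM factors) in the control pair and 575 and 482 CPM in the knockdown pair. Both knockdown libraries were below both controls, but the log2 fold change of -0.34 (standard error 0.20) did not pass edgeR's quasi-likelihood test (adjusted p = 1.00), and it was -0.22 without NK shADAR1 replicate 2. All 10 natural killer cell markers checked were present, from 2.96 to 2081 FPKM (fragments scaled for transcript length and library size). The T cell genes CD3G and CD8B were at most 0.03 FPKM, whereas TRAC reached 139 FPKM and CD28 46.4 FPKM.

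E2F factors bind a short element, and the sequences are shown to set it beside the values. In the RefSeq promoter table (GRCh38.p14), 38 of the 43 genes have an entry, and MCM4, MCM5, GINS4, RPA2 and CCNE2 have none. The 250 bases before each start were searched on both strands for the E2F letters TTTCCCGC, TTTCGCGC, TTTGCCGC and TTTGGCGC. Of the 38 genes, 17 (44.7%) hold at least 1 match, against 3.4% of the 27305 genes in the table and 5.97% of the 9535 tested genes with an entry. A match is a description of the letters and not evidence of binding. For 10 of the genes given by library below, the stretch with the match nearest the start is given in the direction of the gene, with matches in capitals. In MCM6 and in E2F1 a pair of matches lies in the stretch, overlapping in MCM6.
MCM6, chr2:135876502-135876549, minus strand: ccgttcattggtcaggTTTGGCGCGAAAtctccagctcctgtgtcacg
MCM3, chr6:52284889-52284936, minus strand: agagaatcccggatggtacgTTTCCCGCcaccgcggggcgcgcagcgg
MCM7, chr7:100101398-100101426, minus strand: cggtcacgtggggggcgacgTTTCGCGCc
CDT1, chr16:88803734-88803781, plus strand: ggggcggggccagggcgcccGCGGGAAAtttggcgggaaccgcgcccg
PCNA, chr20:5126654-5126701, minus strand: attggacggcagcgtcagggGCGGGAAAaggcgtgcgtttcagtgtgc
POLA1, chrX:24693761-24693808, plus strand: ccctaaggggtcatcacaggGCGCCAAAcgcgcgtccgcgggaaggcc
POLA2, chr11:65261889-65261936, plus strand: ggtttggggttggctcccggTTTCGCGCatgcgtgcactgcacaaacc
TYMS, chr18:657594-657641, plus strand: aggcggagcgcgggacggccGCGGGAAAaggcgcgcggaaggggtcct
E2F1, chr20:33686386-33686438, minus strand: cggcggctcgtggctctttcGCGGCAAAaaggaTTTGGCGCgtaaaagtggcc
CDC25A, chr3:48188434-48188481, minus strand: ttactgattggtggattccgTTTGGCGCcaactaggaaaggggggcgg

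The genes were well expressed in every library. On the FPKM scale, which corrects for transcript length and so allows genes to be compared, they ranged from 7.53 (CCNE2 in NK scramble replicate 2) to 399 (MCM7 in NK shADAR1 replicate 2). Their median level was 46 FPKM, against 11.3 FPKM for all 11810 genes tested, and 41 of the 43 lay above that median. MCM7, MCM4, PCNA, MCM3, TYMS and MCM2 had the highest mean FPKM, and CCNE2, CCNE1 and POLA1 the lowest. Summed over the 43 genes, FPKM was 3413 and 3410 in NK scramble replicates 1 and 2 and 3335 and 3288 in NK shADAR1 replicates 1 and 2. As a share of all estimated counts, the set took 0.827% in both NK scramble libraries and 0.809% and 0.805% in the NK shADAR1 libraries. On other scales the groups overlapped. Summed CPM was 8182 and 8411 in the control pair and 7790 and 8313 in the knockdown pair. The share of all FPKM was 0.621% and 0.586% in the control pair and 0.606% and 0.551% in the knockdown pair.

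**Figure D1:**
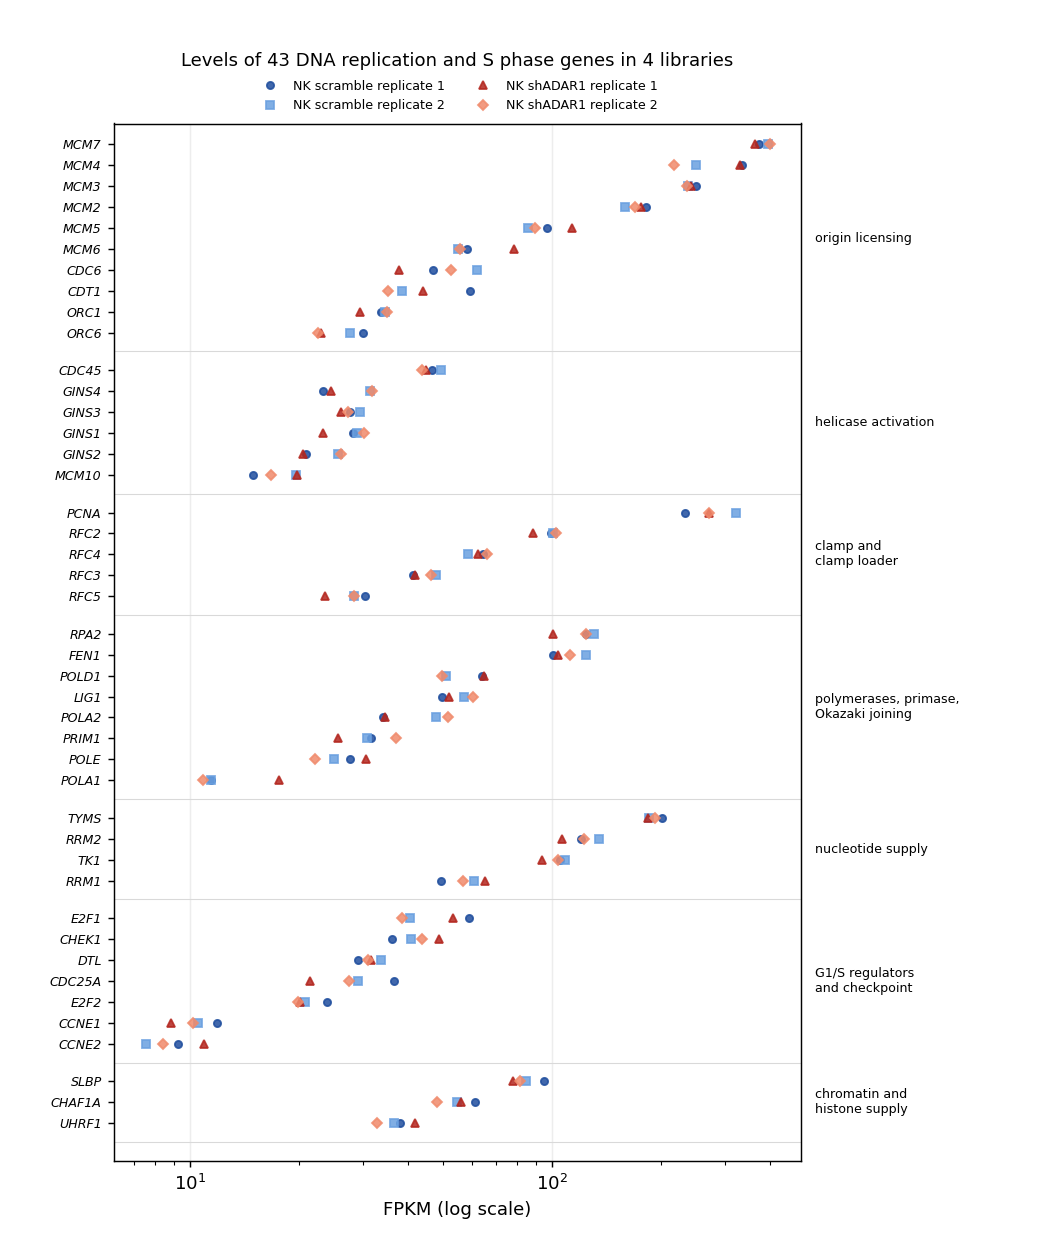
FPKM (log scale) of each of the 43 genes in the 4 libraries, grouped by role and ordered by mean level. Blue symbols are the NK scramble libraries and red symbols the NK shADAR1 libraries, and within most genes the 4 points lie close together and interleave, from CCNE2 at 7.53 to MCM7 at 399 FPKM.

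No gene of the 43 passed the test on knockdown of ADAR1. With edgeR's quasi-likelihood test, 0 of 43 reached the study's threshold of adjusted p under 0.05 with at least 1.5-fold difference (0% of all genes tested), and 0 of 43 had an unadjusted p under 0.05 (2.48% of all genes tested). DESeq2 and limma on FPKM also gave 0 at both levels. The smallest unadjusted p was 0.106, for ORC6 (adjusted p = 1.00). Log2 fold changes ran from -0.34 to 0.31 with standard errors from 0.19 to 0.24, and none reached 1.5-fold. For 29 of 43 genes the 95% interval of the fold change lay within 1.5-fold in both directions, as it did for 32.0% of all genes tested, and for all 43 it lay within 2-fold. A change of 1.5-fold lay inside the interval for the other 14. In bulk RNA, fewer cells in S phase and less RNA per cell cannot be told apart. The intervals assume that 2 libraries per group show the spread, and with 1 library left out between 1 and 10 genes had an interval within 1.5-fold.

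**Figure D2:**
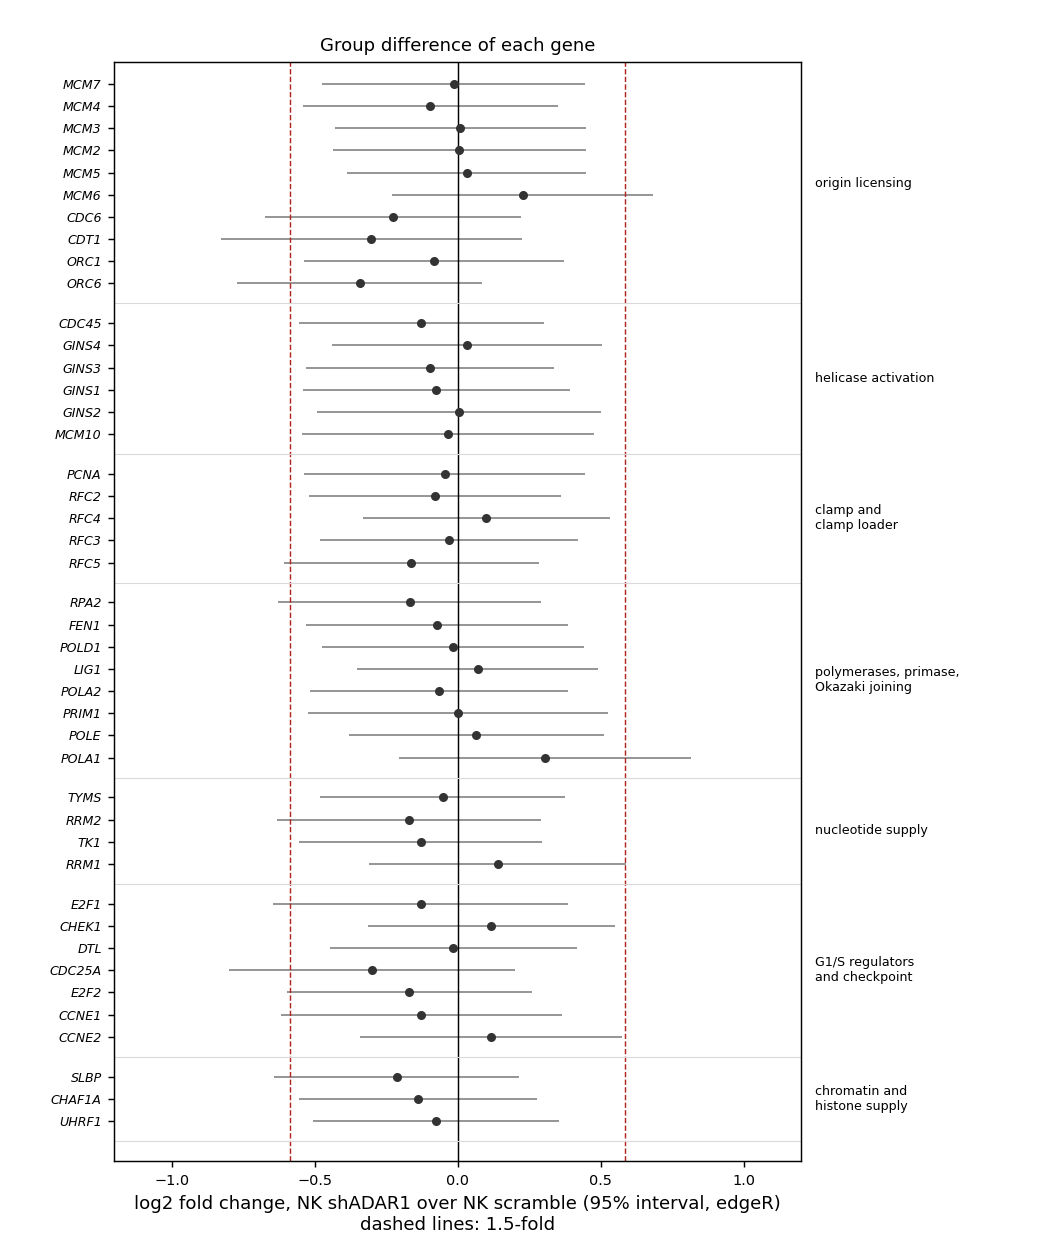
Log2 fold change of each of the 43 genes, NK shADAR1 over NK scramble, with its 95% interval from edgeR. Dashed lines mark a 1.5-fold change, every interval spans 0, and the point values run from -0.34 (ORC6) to 0.31 (POLA1).

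Of the 10 licensing genes, 4 lay above 0 and 6 below, with a median log2 fold change of -0.05. MCM7, the most abundant of the 43, had 917 and 994 CPM in the control pair and 872 and 1021 CPM in the knockdown pair. The knockdown libraries thus lay on either side of the controls, and the log2 fold change was -0.01 (95% interval -0.47 to 0.45). MCM3 had 669 and 700 CPM in the control pair and 683 and 695 CPM in the knockdown pair, the narrowest range of the 43 genes, with a largest-to-smallest ratio of 1.05. Over MCM2 to MCM7, the log2 fold changes ran from -0.10 (MCM4) to 0.23 (MCM6), with a median of 0.01. MCM6 had 216 and 210 CPM in the control pair and 283 and 216 CPM in the knockdown pair. The knockdown mean was higher through replicate 1 alone, and without that library the log2 fold change was 0.02.

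The 4 origin recognition and loading genes of this set, ORC6, CDC6, CDT1 and ORC1, all had log2 fold changes below 0. Other subunits of the origin recognition complex are among the further replication genes below. Of these, ORC2 was at 0.03, ORC3 at 0.18 and ORC4 at 0.32, and ORC5 was at -0.16. They were named after their values were seen. ORC6, the smallest subunit of the origin recognition complex, had 47.9 and 44.9 CPM in the control pair and 35.6 and 37.5 CPM in the knockdown pair. The groups of ORC6 did not overlap, and it had the lowest log2 fold change of the set, -0.34 (standard error 0.19, 95% interval -0.77 to 0.09, adjusted p = 1.00 by the edgeR test). It stayed between -0.39 and -0.30 whichever library was left out. CDC6, an ATPase that loads the rings, had 112 and 120 CPM in the control pair and 88.7 and 109 CPM in the knockdown pair, a log2 fold change of -0.23 with separated groups, or -0.08 without NK shADAR1 replicate 1. CDT1, which brings the rings to origins, had 153 and 100 CPM in the control pair and 111 and 94.9 CPM in the knockdown pair. The CDT1 groups overlapped, and its log2 fold change of -0.30 (standard error 0.24) became 0.03 without NK scramble replicate 1. ORC1, the largest subunit of the complex, had a log2 fold change of -0.08 with overlapping groups.

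The 6 genes of helicase activation stayed within -0.13 to 0.03 on the log2 scale. CDC45, the most abundant of them by FPKM, had 85.4 and 91.5 CPM in the control pair and 79.0 and 83.1 CPM in the knockdown pair. The groups were separated by a small gap, and the log2 fold change of -0.13 had a 95% interval of -0.55 to 0.30. GINS1 to GINS4, the subunits of the GINS complex, ran from -0.10 to 0.03. MCM10, which helps the helicase to start, had 53.8 and 75.9 CPM in the control pair and 70.0 and 56.8 CPM in the knockdown pair. Its replicates differed more than its groups did.

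All 5 genes of the clamp and its loader had overlapping groups. PCNA had 295 and 418 CPM in the control pair and 333 and 358 CPM in the knockdown pair. Both knockdown values fell between the control values, and the log2 fold change was -0.04 (95% interval -0.54 to 0.45). For the loader subunits RFC2, RFC3, RFC4 and RFC5, log2 fold changes ran from -0.16 (RFC5) to 0.10 (RFC4).

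Of the 8 genes for polymerases, primase, single-strand binding and Okazaki fragment joining, 4 lay above 0 and 4 below, and none had separated groups. POLA1, the catalytic subunit of polymerase alpha, had the highest log2 fold change of the set, 0.31 (standard error 0.23, 95% interval -0.20 to 0.82). It had 60.9 and 62.4 CPM in the control pair and 91.2 and 61.1 CPM in the knockdown pair. The value thus rested on a single library, and without it the log2 fold change was -0.01. PRIM1, the primase subunit that works with POLA1, was low in the same library, with 45.6 and 46.3 CPM in the control pair and 36.0 and 56.0 CPM in the knockdown pair. RPA2, a subunit of the single-strand binding protein RPA and the most abundant of these genes by FPKM, had 190 and 206 CPM in the control pair and 152 and 200 CPM in the knockdown pair. The replicative polymerases POLD1 and POLE had log2 fold changes of -0.02 and 0.07, the flap nuclease FEN1 -0.07 and the ligase LIG1 0.07.

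Among the genes of nucleotide supply, TYMS, which makes thymidylate, had 320 and 304 CPM in the control pair and 283 and 318 CPM in the knockdown pair. The groups overlapped, and its log2 fold change was -0.05 (95% interval -0.48 to 0.38). Exons of TYMS overlap those of ENOSF1 on the opposite strand, so reads there cannot be told apart. The subunits of ribonucleotide reductase had log2 fold changes on opposite sides of 0, RRM1 at 0.14 and RRM2 at -0.17, and neither passed the test. RRM1 had 152 and 194 CPM in the control pair and 198 and 184 CPM in the knockdown pair, and the groups overlapped. Without NK scramble replicate 1, the lowest library, the log2 fold change was -0.03. TK1, the thymidine salvage kinase, had a log2 fold change of -0.13.

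The G1/S regulators lay mostly below 0, 5 of 7. CDC25A, the phosphatase that activates CDK2, had 89.1 and 86.9 CPM in the control pair and 58.3 and 84.9 CPM in the knockdown pair. Both knockdown libraries were below the controls, replicate 2 only just, and the log2 fold change of -0.30 (standard error 0.23) became -0.05 without NK shADAR1 replicate 1. E2F1, the most abundant of these genes by FPKM, had 157 and 111 CPM in the control pair and 138 and 107 CPM in the knockdown pair. In both groups E2F1 was higher in replicate 1, and its log2 fold change was -0.13 (95% interval -0.64 to 0.39). E2F2, a further activating E2F, had a log2 fold change of -0.17 with separated groups, and DTL, the receptor that marks CDT1 for degradation, one of -0.01. The cyclin E genes CCNE1 and CCNE2 had log2 fold changes of -0.13 and 0.12. Exons of CCNE2 overlap those of INTS8 on the opposite strand, the longest overlap being 1628 bases, so reads there cannot be told apart. CHEK1, the kinase that restrains cells with stalled forks, was the sole gene of the 43 in which both knockdown libraries lay above both controls, with 74.2 and 82.9 CPM in the control pair and 86.9 and 83.5 CPM in the knockdown pair, a log2 fold change of 0.12, or 0.04 without NK scramble replicate 1. CHEK1, like MCM3, CDC6, MCM10 and PRIM1 above, was given in full after its values were seen.

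All 3 genes of chromatin and histone supply lay below 0. SLBP, which binds the stem-loop of histone mRNA, had 164 and 144 CPM in the control pair and 129 and 137 CPM in the knockdown pair. The groups did not overlap, and the difference was -0.21 on the log2 scale (standard error 0.19, 95% interval -0.64 to 0.21), or -0.115 without NK scramble replicate 1. CHAF1A, a subunit of the histone chaperone CAF-1, had a log2 fold change of -0.14 with separated groups, and UHRF1, which guides maintenance of DNA methylation, one of -0.07.

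Across the set, 29 of 43 genes had a log2 fold change below 0 (50.0% of all genes tested), and the median was -0.06 against 0.00 for all genes tested. This lean to the low side depended on NK shADAR1 replicate 1, which was the lowest of the 4 libraries in 24 of the 43 genes. Without it, 19 of 43 genes lay below 0 and the median was 0.02. With any other library left out, 25 to 31 genes lay below 0. Both knockdown libraries were below both controls in 9 genes (12.6% of all genes tested) and above them in 1 (13.3% of all genes tested). The 9 were MCM4, ORC6, CDC6, CDC45, TK1, E2F2, CDC25A, SLBP and CHAF1A. Leaving out 1 library moved most of these values by over 1.5 times, to -0.02 for MCM4 and -0.04 for TK1 without NK shADAR1 replicate 1, -0.09 for E2F2 without NK scramble replicate 1, -0.08 for CDC45 without NK scramble replicate 2 and -0.09 for CHAF1A without NK shADAR1 replicate 2. In 5 genes the group difference exceeded the difference between replicates in both groups, where 15.0% of all genes tested did so. These 5, named after their values were seen, were ORC6, CDC45, E2F2, SLBP and CHAF1A.

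Replicates of the same group differed from each other about as much as the groups did, or more. The median size of the difference between NK scramble replicates was 0.10 on the log2 CPM scale, that between NK shADAR1 replicates 0.23, and that between group means 0.10. Over all genes tested these medians were 0.22, 0.23 and 0.12. A mean of 2 libraries varies less than a single library, so the difference between group means tends to be the smaller one. NK shADAR1 replicate 2 was above replicate 1 in 31 of the 43 genes, by a median of 0.12, whereas over all genes tested the median was -0.01. In NK scramble cells, replicate 2 was above replicate 1 in 25 of 43, by a median of 0.04. The largest differences between NK shADAR1 replicates were those of PRIM1 (0.62), CDC25A (0.53) and POLA1 (-0.57), and between NK scramble replicates those of CDT1 (-0.61), PCNA (0.50) and E2F1 (-0.50).

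**Figure D3:**
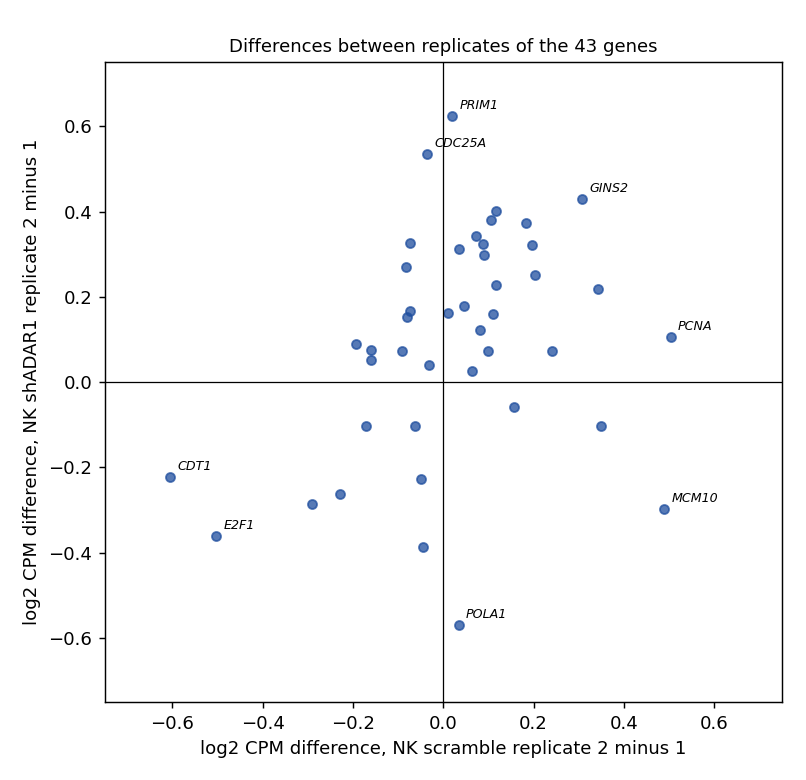
Difference between the replicates of each group for the 43 genes, as log2 CPM of replicate 2 minus replicate 1, NK scramble on the horizontal axis and NK shADAR1 on the vertical axis. Genes past 0.42 in either group are named, and 31 of the 43 points lie above the horizontal line, where NK shADAR1 replicate 2 was higher than replicate 1.

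For a few genes the deposited counts and FPKM values ordered the libraries differently. The ratio of count to FPKM reflects the transcript length that the authors' program assigned to a gene in a library. Centred on the median gene, this ratio varied by more than 0.25 on the log2 scale over the 4 libraries for 6 of the 43 genes, as it did for 19.5% of the 11761 genes with values in every library. MCM4 had 764 and 769 CPM in the control pair and 677 and 757 CPM in the knockdown pair. Its FPKM was 334 and 250 in NK scramble replicates 1 and 2 and 331 and 218 in NK shADAR1 replicates 1 and 2. On the FPKM scale MCM4 was thus high in both libraries numbered 1 and low in both numbered 2, while the counts showed no such split, and its ratio varied 1.59-fold. POLA2, the regulatory subunit of polymerase alpha, went the other way, with 34.1 and 47.8 FPKM in NK scramble replicates and 34.6 and 51.7 FPKM in NK shADAR1 replicates, and CDC6 also had higher FPKM in both libraries numbered 2. MCM4 and CDC6, whose groups were separated in CPM, overlapped between groups in FPKM. MCM4, POLA2 and CDC6 were chosen here after their values were seen. Which transcripts were present in each library was not analysed here.

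**Figure D4:**
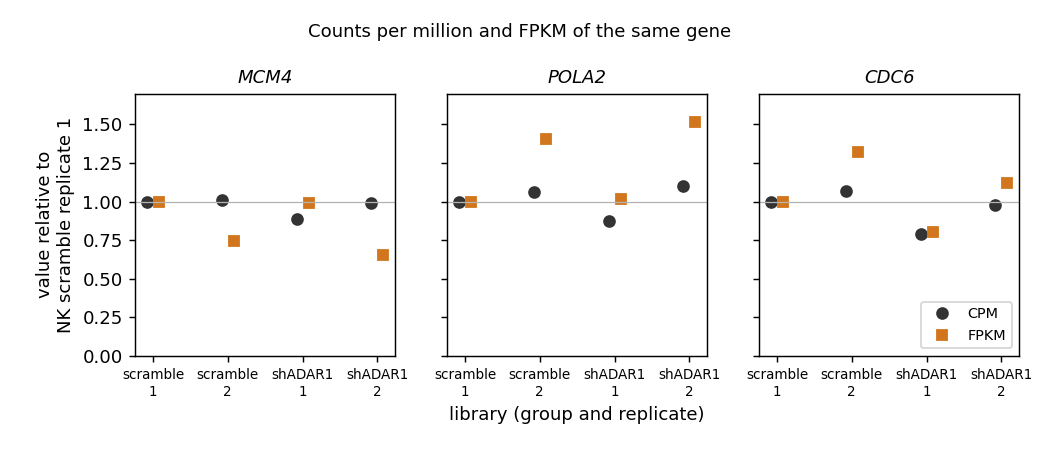
MCM4, POLA2 and CDC6 in the 4 libraries, as CPM (circles) and FPKM (squares), each relative to NK scramble replicate 1. For MCM4 the CPM of NK shADAR1 replicate 2 is 0.992 of the reference and its FPKM 0.652, and for POLA2 the same library stands at 1.10 and 1.52.

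In a list of 43 further replication genes, all tested, 26 lay above 0 and 17 below. Their median log2 fold change was 0.03, or -0.01 without NK scramble replicate 1. Both knockdown libraries lay above both controls in 9 of them and below in 1 (13.3% and 12.6% of all genes tested). In this list 2 had an unadjusted p under 0.05 from edgeR (2.48% of all genes tested), both higher. RFC1, the large subunit of the clamp loader, had 88.6 and 69.3 CPM in the control pair and 114 and 109 CPM in the knockdown pair, which gave a log2 fold change of 0.49 (standard error 0.21), or 0.32 without NK scramble replicate 2. TOPBP1, a scaffold for helicase activation and checkpoint signaling, had 177 and 144 CPM in the control pair and 266 and 191 CPM in the knockdown pair, which gave a log2 fold change of 0.51, or 0.25 without NK shADAR1 replicate 1. Both had an adjusted p of 1.00 in edgeR's quasi-likelihood test.

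Of 40 mitosis genes, which act later in the same cycle, 28 lay above 0 and 12 below, with a median log2 fold change of 0.07, or -0.03 without NK shADAR1 replicate 2. The list held 4 genes with an unadjusted p under 0.05 (2.48% of all genes tested), all higher in NK shADAR1 cells. With all 4 libraries, none of these 4 genes passed after adjustment (adjusted p = 1.00, edgeR's quasi-likelihood test). They were MKI67, a coat protein of mitotic chromosomes and marker of cycling cells, at 0.83, the kinetochore protein CENPF at 0.79, topoisomerase TOP2A at 0.58 and the condensin subunit NCAPG at 0.46. MKI67 had 389 and 240 CPM in the control pair and 699 and 415 CPM in the knockdown pair. Its log2 fold change was 0.40 without NK shADAR1 replicate 1 and 1.21 without NK scramble replicate 1. CENPF had 256 and 150 CPM in the control pair and 390 and 311 CPM in the knockdown pair. Without NK scramble replicate 1 its log2 fold change was 1.22. TOP2A had 573 and 381 CPM in the control pair and 761 and 665 CPM in the knockdown pair. NCAPG had 77.3 and 63.5 CPM in the control pair and 101 and 92.1 CPM in the knockdown pair. All 4 genes were thus separated, and without NK scramble replicate 2 the log2 fold changes were lower, 0.45 for CENPF, 0.31 for TOP2A and 0.32 for NCAPG. In 10 of the 40 both knockdown libraries lay above both controls, and in 0 below (13.3% and 12.6% of all genes tested). The log2 fold changes ran from -0.11 (MAD2L1) to 0.83 (MKI67), with quartiles of -0.04 and 0.32. Among the others were the condensin subunit SMC2 at 0.42, the spindle checkpoint proteins BUB1B at 0.40 and BUB1 at 0.39, and the mitotic kinase PLK1 at -0.07, named after their values were seen.

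As a description across genes, which are not independent replicates and share their libraries, the log2 fold change correlated with the mean log2 ratio of count to FPKM, a measure of transcript length, at a Spearman rho of 0.574 (Pearson r = 0.689) over the 40 mitosis genes and 0.458 (r = 0.515) over the 43 further replication genes. Over the 43 S phase genes rho was 0.249 (r = 0.301), and over 11761 genes it was 0.099 (r = 0.068). For the level in NK shADAR1 replicate 1 relative to the other 3 libraries, rho was 0.490 over the 43 S phase genes. It was 0.521 over the further replication genes, 0.692 over the mitosis genes and 0.264 over all. Among the 43, the genes with the highest value, POLA1 and MCM6, were above the median gene in length and high in that library alone. The part of transcript length in these differences was not tested.

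By the E2F letters described above, the median log2 fold change was -0.03 for the 17 genes with a match and -0.08 for the other genes with an entry, and no test was made of this difference. The CHR letters TTTGAA, which mark many genes of late cell cycle, were found before 1 of 38 S phase genes (RRM1). They were found before 19 of 33 mitosis genes with an entry. The share was 16.1% of all genes in the table and 12.3% of tested genes with an entry. The CCAAT letters were found before 24 of 38 S phase genes and 25 of 33 mitosis genes. The share was 37% of all genes and 42.1% of tested genes with an entry. No promoter was measured in these libraries.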

How the data were processed

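Oligo(dT)-selected mRNA of 4 NK-92 libraries was sequenced on an Illumina NovaSeq instrument. Per the submitters' processing notes, fastp 0.18.0 was used. The aligner, counting program, genome build and use of strand are not given in the sources used here. The authors deposited estimated counts per gene, not normalized, and FPKM values, which they scaled by transcript length and mapped fragments. Of 20323 Ensembl identifiers, 20301 matched a symbol.

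Counts were rounded, filtered with filterByExpr (minimum count 10), scaled by TMM and tested across 11810 genes with the quasi-likelihood test of edgeR 4.0.16 in R 4.3.3, without covariates, with Benjamini-Hochberg adjustment. Standard errors are the log2 fold change divided by the square root of F, and 95% intervals use the test's degrees of freedom. Alternatives were DESeq2 1.42.0, limma 3.58.1 on log2(FPKM + 1) and log2(FPKM + 0.1), other scalings and filters, a replicate block and each library left out. Scripts were tested on simulated counts. With 2 libraries per group, an exact permutation test was not used.

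The members and gene lists were chosen with earlier results of these data known. Values in every library are given for genes with an unadjusted p under 0.05, the 3 highest and 3 lowest log2 fold changes, and the highest FPKM in each role. Exons of 14 members overlap those of another protein-coding gene in GENCODE 29, and the kit named does not mark strand, so reads there cannot be told apart.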

Additional observations from a re-analysis of the deposited data

How the results depend on the processing

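In all alternatives run, 0 of the 43 genes were called. With all 4 libraries, the count with an unadjusted p under 0.05 was 0 under DESeq2, other scalings and filters, the replicate block and FPKM. With 1 library left out, this count is not given. The log2 fold change of CDT1 was -0.58 without NK scramble replicate 2. Without NK shADAR1 replicate 2, that of POLA1 was 0.564 and that of CDC25A -0.597. The set's median log2 fold change lay between -0.07 and -0.03 with all 4 libraries and between -0.166 and 0.0226 with 1 left out, turning sign without NK shADAR1 replicate 1. The number of genes below 0 was 29 to 31 with all libraries and 19 to 31 with 1 left out, and the number with an interval within 1.5-fold was 26 to 38 and 1 to 10. Such fits take the lone library of a group to vary like the other group. The median of the further replication genes ran from -0.0101 to 0.0821 and that of the mitosis genes from -0.0285 to 0.184 with 1 library left out. The cause was not tested.

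Same-numbered libraries deviated together (r = 0.372 over tested genes, 0.322 over the 43), but 2 pairs do not show that the numbers pair the samples. With the replicate number as a block, 13 of 11810 genes were called against 0 without it, and 681 had an unadjusted p under 0.05 against 293, but none of the 43 did. Their median was -0.07, and 31 lay below 0.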

Other observations

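The regulators upstream of S phase entry were measured as a list of 30 cyclins, CDKs, CDK inhibitors and E2F and RB family genes, of which 26 passed the filter on low counts. Of these, 20 lay below 0 and 6 above, with a median log2 fold change of -0.06. An unadjusted p under 0.05 from edgeR was found for 0 of them (2.48% of all genes tested). CCND2, a D-type cyclin, had 240 and 377 CPM in the control pair and 155 and 275 CPM in the knockdown pair. Its groups overlapped, with a difference of -0.52 on the log2 scale (standard error 0.30). CDK2, the partner of cyclin E, had 186 and 192 CPM in the control pair and 149 and 175 CPM in the knockdown pair, a log2 fold change of -0.22 with separated groups. Of the CDK inhibitors, CDKN2A had 281 and 206 CPM in NK scramble cells, whereas CDKN1A, the inhibitor induced by p53, had 0.276 and 0.0255 CPM there and at most 0.0763 CPM in NK shADAR1 cells. CCND2, CDK2, CDKN2A and CDKN1A were named after their values were seen.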
